A study of Mus musculus with 28 samples.

Results

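The 676 regions described here lost open chromatin in mouse lung epithelial cells after deletion of Yap, according to the authors' own list, and every row of that list was kept. They are 676 of the 8617 regions in the 4 lists deposited for the study, beside 532 regions opened in the same line and 1392 closed and 6017 opened in a second line. In the Yap deleted line, mice carried floxed Yap on both alleles (Yap flox/flox) with Sftpc-CreERT2. This is a tamoxifen-responsive Cre recombinase driven by the surfactant protein C gene of alveolar type 2 (AT2) cells. Their controls were described as Yap flox/flox without Cre. In the second line, called Yap active, mice carried Stk3 flox/flox and Stk4 flox/flox with Sftpc-CreERT2, and their controls were described as lacking Cre. Recombination took place at postnatal day 3 and cells were taken at postnatal day 14. Cells carrying the endothelial antigen CD31, the blood cell antigens CD45, CD16/32 and Ter119, or CD90.2 or CD271 were removed first, and EPCAM-positive cells were then selected. The labels call them AT2 cells. Any EPCAM-positive cell passes this selection, and Sftpc-CreERT2 acts in the cells that express Sftpc. Chromatin was profiled by ATAC-seq, in which a transposase cuts accessible DNA, from 50000 cells per library. RNA came from the cells that remained of the same samples.

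The regions were chosen by the ATAC contrast itself, so their closing is a description with no test. The file header names 2 comparisons, each of 1 deleted library with the same control library, and all 676 regions were merged from both. Only 1 control ATAC library stood behind them, against 2 deleted libraries, so the spread between controls is unknown. RNA came from 5 Yap deleted libraries and 4 controls and, in the second line, from 6 Yap active libraries and 4 controls. No label says that each library came from its own animal, and the p-values below measure only the spread between libraries.

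Yap is a coactivator that enters the nucleus when the Hippo kinases, among them the products of Stk3 and Stk4, are inactive. It binds DNA through TEAD transcription factors, often at enhancers that also carry AP-1 sites and lie far from start sites. In the alveolus, AT2 cells secrete surfactant and are progenitors of the thin alveolar type 1 (AT1) cells across which gas is exchanged, and Yap is known for its part in the choice between both fates.

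RNA libraries of the Yap deleted line held 31.9 to 42.9 M counts. Yap1 lay at 215, 119, 168 and 187 CPM (counts scaled to library size) in controls 1 to 4 and at 78.3, 142, 102, 84.4 and 95.4 CPM in deleted libraries 1 to 5, so the library labelled control 2 overlapped the deleted group. Esr1, taken as a marker of the Cre driver, lay at 1.85, 87.1, 3.91 and 0.952 CPM in controls 1 to 4. In the deleted libraries it lay at 242 to 531 CPM. Whether the label of control 2 is right was not tested. Summed over 15 endothelial markers, controls 1 and 2 held 3081 and 2614 CPM, against 322 to 323 CPM in controls 3 and 4 and 230.0 to 326 CPM in the deleted libraries. Neutrophil markers spanned 4.33 to 1075 CPM in the controls and 2.90 to 17.1 CPM in the deleted libraries, and those of fibroblasts and muscle 5294 to 25101 CPM and 5197 to 19332 CPM. AT1 markers summed to 13668, 10772, 30490 and 18008 CPM in controls 1 to 4 and to 11600 to 20094 CPM in the deleted libraries, and AT2 markers to 48733, 44056, 84449 and 143005 CPM and 83145 to 122216 CPM. In such bulk samples, fewer cells of a type and less RNA per cell cannot be told apart.

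Sequences are shown where a closed region lay over a microRNA or a RefSeq promoter window. The region at chr6:124717538-124718436 (mm10, score 12.55) held the whole hairpins of Mir141 and Mir200c, members of the miR-200 family that maintains the epithelial state. The region at chr11:87756700-87757200 (score 8.50, 500 bp wide) held the hairpin of Mir142, a microRNA of blood cells, and its antisense partner Mir142b. Their mature sequences from RefSeq (GRCm38.p6) are given 5′ to 3′ with the seed, bases 2 to 8, in capitals, and none of the 4 share a seed.
miR-141-3p: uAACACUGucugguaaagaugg
miR-200c-3p: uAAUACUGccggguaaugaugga
miR-142a-5p: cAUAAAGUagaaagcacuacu
miR-142a-3p: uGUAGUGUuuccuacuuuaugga
Closed regions were also named for Mir30a (1.91 kb from its start, score 26.4), Mir222 (3.88 kb upstream, score 51.0) and Mir221 (50.4 kb, score 43.15). The RNA was selected for poly(A) tails and gives no measure of these short RNAs.

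Closed regions reached few promoters. Of the RefSeq promoter windows, 250 bases before to 50 after a start, 15 had at least 150 bases inside a closed region. The 250 bases before the start are printed for 4 of them, on the strand of the gene, with matches to searched motifs in capitals. Plet1, a surface marker of epithelial progenitors, is shown as a promoter with both a C/EBP match (TTGCNNAA, at base 53) and an AP-1 match (TGANTCA, at base 107), at chr9:50494275-50494524 on the plus strand. Trpm8, a cold-sensing ion channel, held a C/EBP match at base 111, at chr1:88306485-88306734 on the plus strand. Wnt2, a Wnt ligand of lung mesenchyme, held the CTCF core (AGGGGGC) at bases 51 and 79, at chr6:18030446-18030695 on the minus strand. Gm30246, an unnamed gene, held a TEAD match (GGAATG, at base 23) and an AP-1 match (base 240), at chr14:76780461-76780710 on the plus strand. The region over it is classed as intergenic and named for 1700108F19Rik at 103 kb, so it is not among the promoter regions counted below. Positions count from the 5′ end of the printed run, and the matches shown do not overlap each other.
Plet1: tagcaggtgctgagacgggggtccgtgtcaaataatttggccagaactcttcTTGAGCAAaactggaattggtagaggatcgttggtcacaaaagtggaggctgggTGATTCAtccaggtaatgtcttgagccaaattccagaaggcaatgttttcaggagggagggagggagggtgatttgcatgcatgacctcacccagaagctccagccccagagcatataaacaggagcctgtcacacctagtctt
Trpm8: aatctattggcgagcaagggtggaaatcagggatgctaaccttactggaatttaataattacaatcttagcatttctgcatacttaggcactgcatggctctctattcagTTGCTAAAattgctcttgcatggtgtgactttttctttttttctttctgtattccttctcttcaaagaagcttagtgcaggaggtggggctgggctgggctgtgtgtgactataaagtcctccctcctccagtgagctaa
Wnt2: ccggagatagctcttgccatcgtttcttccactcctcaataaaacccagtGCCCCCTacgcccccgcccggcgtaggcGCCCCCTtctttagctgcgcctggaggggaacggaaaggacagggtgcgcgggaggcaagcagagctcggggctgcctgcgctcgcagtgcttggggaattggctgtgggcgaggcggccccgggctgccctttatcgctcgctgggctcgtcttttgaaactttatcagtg
Gm30246: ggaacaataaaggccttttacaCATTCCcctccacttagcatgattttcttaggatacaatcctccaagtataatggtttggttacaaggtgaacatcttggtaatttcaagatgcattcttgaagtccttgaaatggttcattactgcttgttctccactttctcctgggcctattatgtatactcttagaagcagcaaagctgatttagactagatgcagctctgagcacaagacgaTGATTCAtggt
On either strand of the 15 windows of 300 bases, AP-1 letters occurred in 3 windows (20.0%), against 7.81% of all 32851 RefSeq windows. C/EBP letters occurred in 3 (20.0%, against 10.8%), TEAD letters in 2 (13.3%, against 14.7%) and the NFI letters TTGGCA in 1 (6.67%, against 14.1%). The CTCF core occurred in 2 (13.3%, against 10.6%). FOXA, GATA, KLF and NKX2-1 letters occurred in 0, against at most 3.65% of all windows for each string. In all, 14 motifs were searched, and the 15 windows belong to 14 genes. The windows of Hsd3b2, Zfp764, Slc26a4 and Hmx3 were among those with no match. With so few windows these shares are a description only, and the sequence of the other closed regions was not used here.

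Most closed regions lay far from promoters. Introns held 333 (49.3%), intergenic sequence 288 (42.6%), promoters 18 (2.66%), exons 15, transcript ends 11, 3′ UTRs 8 and 5′ UTRs 2, and 1 on an unplaced contig had no annotation. The promoter share of the regions opened in the same line was 9.40%, that of the regions closed in the Yap active line 2.80% and that of those opened there 29.6%. From a closed region to the start site of its named gene the median distance was 32.8 kb, with quartiles of 9.48 and 100.1 kb and a maximum of 1694 kb. Within 1 kb lay 35 regions (5.18%), within 50 kb 395 (58.4%) and at 100 kb or more 169. Medians in the other lists were 23.2 kb for regions opened in this line and 18.2 and 2.18 kb for those closed and opened in the Yap active line. The bar plot of annotation and distance shows these shares for all 4 lists.

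**Figure D1:**
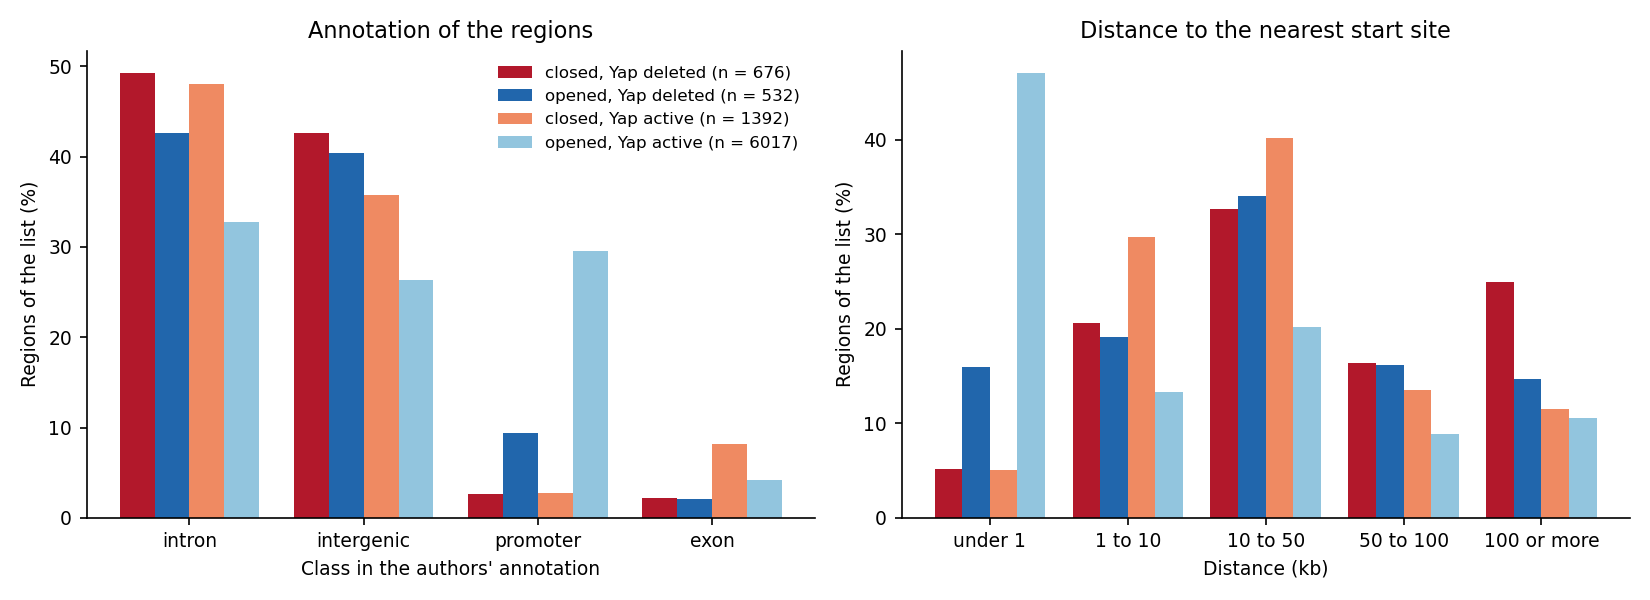
Share of each authors' region list by annotation class (left) and by distance from the region to the nearest start site (right), with 1 bar per list and no error, since each list is a single set. Closed regions of the Yap deleted line (dark red) had a promoter share of 2.66%, and 169 of them lay at 100 kb or more from a start.

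First introns held 105 of the 333 intronic regions (31.5%), against 42.3% for the regions opened in the same line. Among the 288 intergenic regions, 34 (11.8%) lay in long terminal repeats, the remnants of endogenous retroviruses, against 4.65% in the opened list and 11.5% and 5.99% in the closed and opened lists of the Yap active line. Protein-coding genes were the named gene of 551 regions, non-coding RNAs of 112 and pseudogenes of 11. The nearest start site often belonged to another gene than the one in which the region lay. Of 384 regions inside a transcript with a known gene, 287 (74.7%) lay in the gene they were named for. The region named for Akap5 lay in an exon of Mthfd1, that of Jag1 in an intron of Slx4ip and those of Flrt3 in Macrod2.

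Closed regions had a median width of 1115 bp (500 to 2694 bp) and a median score of 19.7 (7.23 to 266). The score is the authors' own and no scale is given for it, so it served only to rank regions within the list. At exactly 500 bp wide were 139 regions (20.6%), against 0 in the list of regions opened in the same line and 60.0% of those closed in the Yap active line. Among the 338 higher-scoring regions, 5 (1.48%) had that width. Higher-scoring regions lay farther from start sites, with a median distance of 50.3 kb, and promoters took 3 of them (0.888%) and intergenic sequence 49.1%. The regions at promoters had a median score of 12.8, and those between genes 22.4. The plot of width against score shows the promoters at the lower left.

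**Figure D2:**
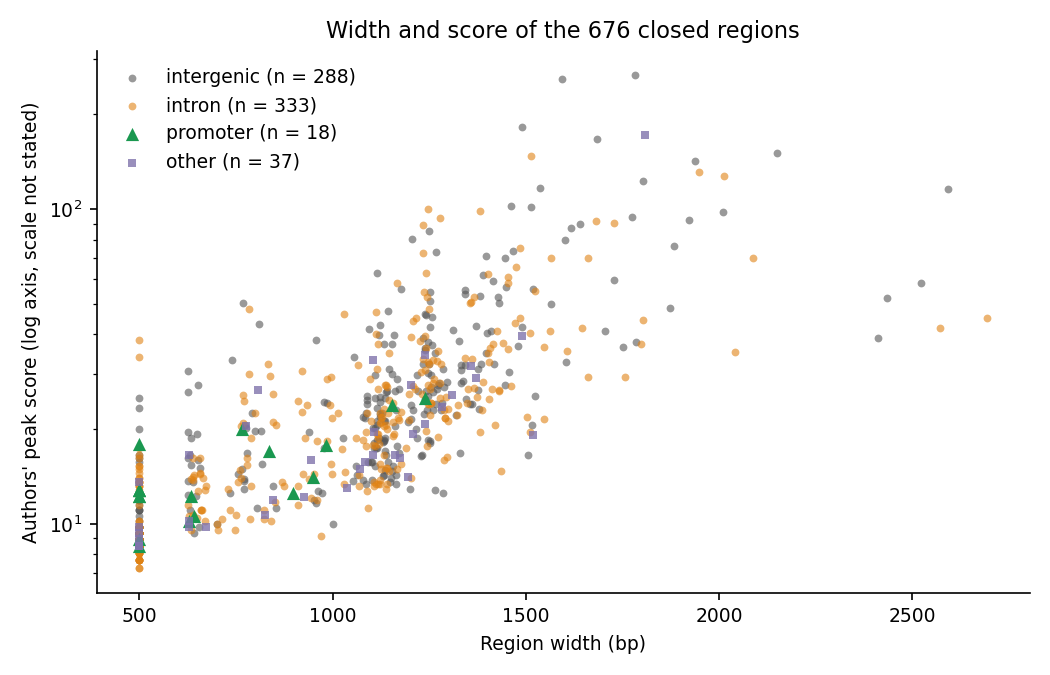
Each point is 1 closed region, with its width in bp on the x axis and the authors' score on a log y axis, coloured by annotation class. The 18 promoters (triangles) had scores of 8.50 to 25.1, while intergenic regions reached 266, and 139 regions stand in a column at 500 bp.

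The highest scores belonged to regions with no close gene. Of the 10 regions at the top, 6 were intergenic, 3 intronic and 1 at a transcript end, 3 lay in long terminal repeats and 6 were beyond 100 kb of the named start. First came a region 578 kb upstream of Lrrn3, a leucine-rich repeat membrane protein of neurons (chr12:42063081-42064863, score 266, in an LTR40a element). The pseudogene Gm8579 (258) and the non-coding genes 4930467K11Rik (182) and 8030451O07Rik (172) followed. Protein-coding genes among the 10 included Epha7, an ephrin receptor (167), Sult2a4, a sulfotransferase (151), Tnip3, an inhibitor of NF-kB signalling (148), and Flrt3, an adhesion molecule (127.5). In RNA, Epha7 lay at 39.8, 18.6, 27.5 and 38.0 CPM in controls and at 22.2, 15.4, 37.2, 15.9 and 11.7 CPM in deleted libraries. The groups overlapped, and its log2 fold change was −0.60 ± 0.35 (SE; edgeR quasi-likelihood test with Benjamini-Hochberg adjustment over all genes, adjusted p = 0.432). Flrt3 spanned 36.1 to 150 CPM in controls and 15.4 to 106 CPM in deleted libraries. Gm8579, 4930467K11Rik and Sult2a4 had too few counts to be tested.

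Some closed regions stood in chains. With gaps under 200 kb, 181 regions (26.8%) had a neighbour in the list, against 96 of 532 regions opened in the same line, and 17 chains held 3 regions or more. A chain of 4 spanned 246 kb from the body of St7 over Wnt2 to Cftr, the chloride channel of cystic fibrosis (chr6:17914368-18159896). Its regions had scores of 8.93 to 117.1, the highest 86.1 kb from the start of Wnt2. Another chain of 4 spanned 334 kb beside Gja1, which encodes connexin 43 of gap junctions, and 4930467K11Rik. Rspo2, a secreted enhancer of Wnt signalling, had 3 regions within 13.1 kb in its last intron, with scores of 90.1, 75.45 and 13.2. Glrx, the thiol enzyme glutaredoxin, had 3 within 13.3 kb around its start, the highest at 85.0. Fat1, a giant cadherin that acts upstream of the Hippo pathway, also had 3, with scores of 22.35, 9.55 and 8.50. Other genes with 3 were Phip, Chchd3, Tecrl, Zfp804a and 8030451O07Rik, and Lrrn3 had 4.

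Genes of alveolar cells were among those named, where 2.47% of the 23478 genes of the RNA table were named in all. Of 30 AT2 markers, 4 had a closed region. Regions opened in this line named 0 of them, those closed in the Yap active line 0 and those opened there, a longer list, 10. Sftpd, surfactant protein D, had one in its first intron 0.130 kb from the start (chr14:41184676-41185461, score 30.0). Cxcl15, the lung chemokine lungkine, had one at 25.5 kb (score 37.85), Il33, an alarmin cytokine of AT2 cells, one at 17.2 kb upstream (29.95) and Ctsh, a protease that processes surfactant protein, one at 5.80 kb (12.8). Of 30 AT1 markers, 4 were named as well, against 2, 3 and 9 in those other lists, in the same order. Regions lay in the first intron of Cldn18, the main lung claudin (chr9:99701873-99704444, 2571 bp wide, score 42.05), and of Mal2, a membrane trafficking protein (chr15:54574413-54577107, 2694 bp, the widest region of the list, 45.05). Lmo7, an actin-linked junction protein, had one in its first intron at 32.5 kb, and Akap5, a scaffold for protein kinase A, the one in Mthfd1 (16.6). The list named 0 of 17 club and goblet markers, 0 of 16 ciliated, 0 of 15 endothelial, 0 of 12 lymphocyte, 0 of 10 neutrophil and 0 of 8 mesothelial markers. It named 1 of 14 macrophage markers, Lpl, and 1 of 18 markers of fibroblasts and muscle, Wnt2. At the share over all genes, lists of this size would hold few or no named genes, so these counts of 0 and 1 say nothing about cell types. The labels number the control ATAC library 1 and do not say whether it shares cells with RNA control 1, in which endothelial markers were high. The cell makeup of the ATAC libraries was not tested.

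RNA of these alveolar genes overlapped between the groups. Sftpd lay at 969, 906, 1212 and 2136 CPM in controls and at 1872.5, 1872, 1667, 1930.0 and 1776 CPM in deleted libraries. Controls 1 to 3 were below and control 4 above every deleted library (log2 fold change 0.48 ± 0.26 SE, edgeR adjusted p = 0.4). All 4 AT2 genes had log2 fold changes above 0 (0.32 to 0.54) and all 4 AT1 genes below 0 (−0.65 to −0.03). The whole lists moved the same way. All 30 AT2 markers had a median of 0.65, with 13 higher at an unadjusted p under 0.05. All 30 AT1 markers had a median of −0.52, with 5 lower. The split is thus not particular to the named genes. Of the 8 named genes, 0 passed an unadjusted p of 0.05. At that p 9.18% of all genes were lower and 6.13% higher, so the count is near the background. Cldn18 had 844, 714, 2117 and 1359.5 CPM in controls and 2072, 1202, 1123, 975 and 774 CPM in deleted libraries. Control 3 and deleted library 1 stood high, and the remaining values overlapped. The AT1 and AT2 marker sums given above differed between controls 1 and 2 and controls 3 and 4, and their part in these values was not tested.

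Components and targets of the pathway itself were named about as seldom as other genes of the table (2.47%). Of 25 Hippo components, 1 was named, Frmd6, a FERM-domain protein upstream of the Hippo kinases, through a region 157 kb upstream (chr12:70668401-70669152, score 10.65). Of 25 genes known as targets of Yap and TEAD, 0 were named, against 2 by the regions opened in this line and 11 by those opened in the Yap active line among its 6017 regions. Frmd6 RNA lay at 90.9, 77.0, 74.5 and 115 CPM in controls and at 59.8, 53.8, 63.4, 55.4 and 73.9 CPM in deleted libraries. The groups did not overlap, but the lowest control and the highest deleted library were almost equal. The log2 fold change was −0.54 ± 0.16 SE (edgeR adjusted p = 0.247). Lower with no overlap were 3 of the 161 tested genes beyond 50 kb (1.86%), against 1.25% of all genes. Of 10 AP-1 factors, Jun was named, by 2 regions on either side of the gene at 29.8 and 25.4 kb. Of 32 lung epithelial transcription factors, Foxp1 and Foxp2 were named, both repressors that shape airway and alveolar fates. Signalling genes named were Ror1 (Wnt receptor), Jag1 (Notch ligand), Bmp4, Bmpr1b, Ltbp1, Smad1 and Tgfbr2 (ligand, receptors, a matrix carrier and an effector of TGF-beta and BMP signalling), and Egfr, Fgf9, Met and Spry2 (a receptor, a ligand, a receptor and an inhibitor of growth factor signalling). In RNA, 0 of the 5 TGF-beta and BMP genes and 0 of the 4 growth factor genes passed an unadjusted p of 0.05, counts too small to stand apart from the shares over all genes (9.18% lower, 6.13% higher). Ror1 lay at 20.9, 14.8, 16.8 and 22.7 CPM in controls and at 32.5, 31.8, 25.2, 28.8 and 25.6 CPM in deleted libraries, higher with no overlap (log2 fold change 0.62 ± 0.16 SE, edgeR adjusted p = 0.247). That held for 4 of the 161 tested genes beyond 50 kb (2.48%), against 2.64% of all genes, so the share is near the background.

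Across the named genes, the shares past an unadjusted p of 0.05 in RNA were near those of all genes. In the main edgeR fit, with all libraries, TMM scaling and no replicate block, they were slightly below in both directions. Of 604 genes named, 581 were found in the RNA table, and 475 had enough counts to be tested. Within 50 kb of a closed region lay 363 of those found and 314 of those tested. None of the 314 was called at an adjusted p under 0.05 in edgeR's quasi-likelihood test, where 0.00632% of all 15818 genes tested were called. At an unadjusted p under 0.05, 22 (7.01%) were lower in deleted libraries, against 9.18% of all genes, and 18 (5.73%) were higher, against 6.13%. A log2 fold change below 0 was found for 159 (50.6%), against 49% of all genes, and the median was −0.00 against 0.01. DESeq2 called 7 lower and 3 higher among these 314 genes, and 611 and 181 among all, while limma-voom with sample quality weights called 0. The order of the shares changed with the setting. The share higher was 6.05% against 5.70% of all genes with DESeq2, 10.8% against 8.28% without control 4 and 5.10% against 5.36% with limma-voom. In edgeR with all libraries it was 4.78% against 4.32% with RLE scaling and 6.69% against 4.95% with the replicate block. Without control 2, the share lower was 6.05% against 4.70%. The plot of fold change by distance shows values on both sides of 0 at every distance.

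**Figure D3:**
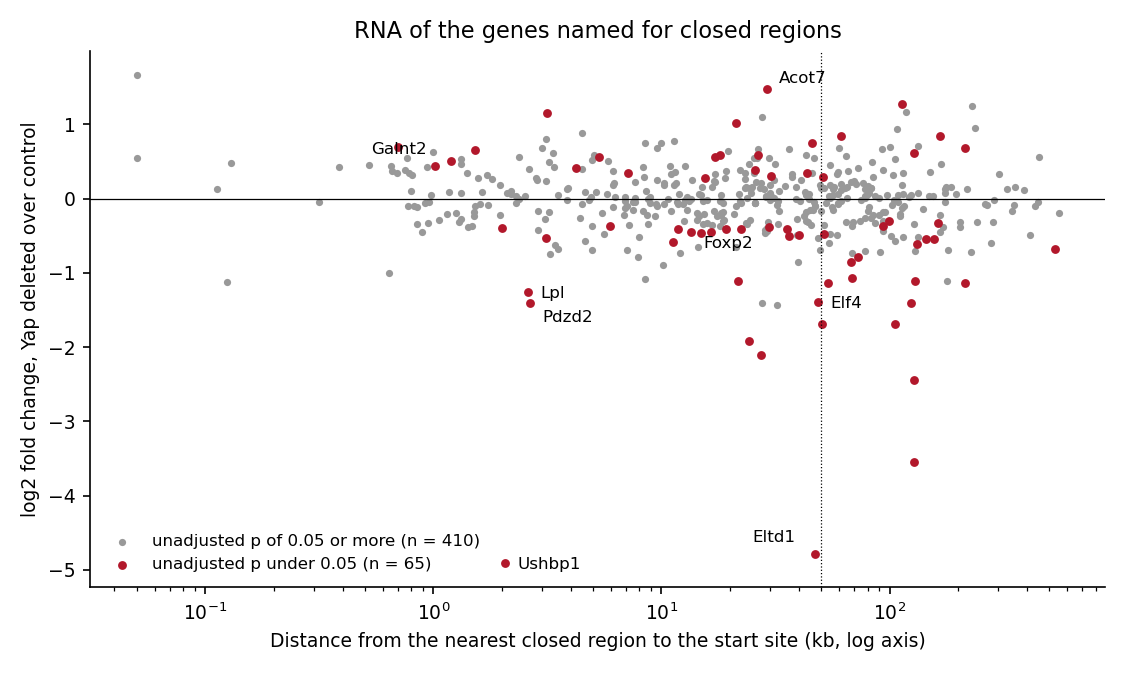
Each point is 1 of 475 tested genes named for closed regions, with the distance from its nearest closed region to the start on a log x axis in kb and the log2 fold change of Yap deleted over control RNA on the y axis. Red points have an unadjusted p under 0.05, the dotted line marks 50 kb and 2 genes closer than 0.05 kb are drawn at that value. Points lie on both sides of 0 at all distances.

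The result depended on the libraries labelled controls 1 and 2. Without them, a comparison added after the data were seen, 24 of 316 closed-region genes (7.59%) were lower at an unadjusted p under 0.05, against 3.71% of all 16073 genes, and 8 (2.53%) were higher, against 2.48%. A log2 fold change below 0 was found for 193 (61.1%), against 49.1% of all genes, and the median was −0.08 against 0.01. In the same comparison the share lower was 4.93% for genes of the regions opened in this line. It was 6.26% and 4.64% for genes of the regions closed and opened in the Yap active line. A share above that of all genes was thus not particular to the closed list. No closed-region gene was called, against 0.00622% of all. Genes of the regions opened in this line had a median of −0.10 with all libraries and of 0.06 without these controls, with 60.0% and 43.3% below 0. Only 2 controls remain in this comparison, and they hold the highest AT1 sum and the highest AT2 sum of the line. Lmo7 had 268, 205, 704 and 575 CPM in controls 1 to 4 and 452, 254, 330, 356 and 328 CPM in deleted libraries. Its log2 fold change was −0.35 with all libraries and −0.92 ± 0.22 SE without controls 1 and 2 (edgeR adjusted p = 0.478).

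Single genes near closed regions that were lower included a transcription factor, a lipase and an airway regulator. In 5 of the 314 genes (1.59%) every deleted library was below every control, against 1.25% of all genes, namely Elf4, Foxp2, Lpl, Pdzd2 and Tnfaip3. Elf4, an ETS-family transcription factor, had 44.3, 66.1, 49.5 and 29.0 CPM in controls and 22.3, 17.3, 14.9, 18.9 and 16.6 CPM in deleted libraries, or 47.2 ± 15.3 (SD, n = 4) and 17.99 ± 2.78 (SD, n = 5). Its log2 fold change was −1.39 ± 0.22 SE, with the smallest adjusted p of the 314 (edgeR, 0.149). Its closed region lay in its own last exon, 48.3 kb from the start (chrX:48414542-48415042, score 9.35). Lpl, lipoprotein lipase, which frees fatty acids from triglyceride, had a region 2.60 kb upstream (chr8:68877471-68878450, score 17.4). It had 128, 163, 71.3 and 117 CPM in controls and 32.7, 45.5, 53.1, 65.2 and 54.9 CPM in deleted libraries, all below the lowest control (log2 fold change −1.25 ± 0.26 SE, edgeR adjusted p = 0.247). Lpl is also one of the macrophage markers, of which 12 of 14 were found in the RNA table and 7 were lower at an unadjusted p under 0.05. The other 11, of which 6 were lower, summed to 211, 502, 219 and 257 CPM in controls and to 159, 165, 132, 221 and 164 CPM in deleted libraries, and none of them was at 0 in any library. Only deleted library 4 was above a control in that sum, and the part of macrophages in the values of Lpl and the other lower genes was not tested. Pdzd2, a PDZ-domain scaffold, had 441, 347, 161 and 133 CPM in controls and 104, 83.6, 95.2, 95.5 and 132 CPM in deleted libraries. The lowest control and the highest deleted library were almost equal, controls 1 and 2 stood high, and without them its log2 fold change of −1.40 became −0.56. Foxp2 had 33.9, 26.7, 30.0 and 33.4 CPM in controls and 25.4, 20.0, 22.5, 25.3 and 20.7 CPM in deleted libraries, a narrow gap in each case (log2 fold change −0.44 ± 0.12 SE, edgeR adjusted p = 0.247). Tnfaip3, which ends NF-kB signalling, had 24.7 to 41.6 CPM in controls and 17.97 to 24.3 CPM in deleted libraries.

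A like number went the other way. In 5 of the 314 (1.59%) every deleted library was above every control, against 2.64% of all genes. Acot7, an acyl-CoA thioesterase, had 71.1, 113, 171 and 268 CPM in controls and 468, 388, 392, 493 and 427 CPM in deleted libraries. Its log2 fold change was 1.48 ± 0.34 SE (edgeR adjusted p = 0.247), and its region lay in an intron 28.9 kb from the start (chr4:152228159-152229406, score 24.0). Galnt2 and B3galnt2, which add sugars to proteins, Sh3rf1, a ubiquitin ligase scaffold, and Glrx were the others. Galnt2 had 174, 184, 218 and 251 CPM in controls and 275, 315, 308, 258 and 317 CPM in deleted libraries (log2 fold change 0.51 ± 0.14 SE). Glrx, with its 3 closed regions, had 43.9, 51.1, 41.3 and 49.7 CPM in controls and 71.6, 63.2, 70.1, 53.2 and 52.4 CPM in deleted libraries (0.42 ± 0.13 SE). Farther than 50 kb, and picked after the values were seen, Mitf, a transcription factor of melanocytes that other cells use too, had 24.1 to 30.2 CPM in controls and 42.0 to 52.1 CPM in deleted libraries (0.84 ± 0.12 SE, edgeR adjusted p = 0.144). Exoc4, a subunit of the exocyst that tethers vesicles, had 28.9 to 33.3 and 44.3 to 67.2 CPM (0.85 ± 0.13 SE, edgeR adjusted p = 0.145).

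**Figure D4:**
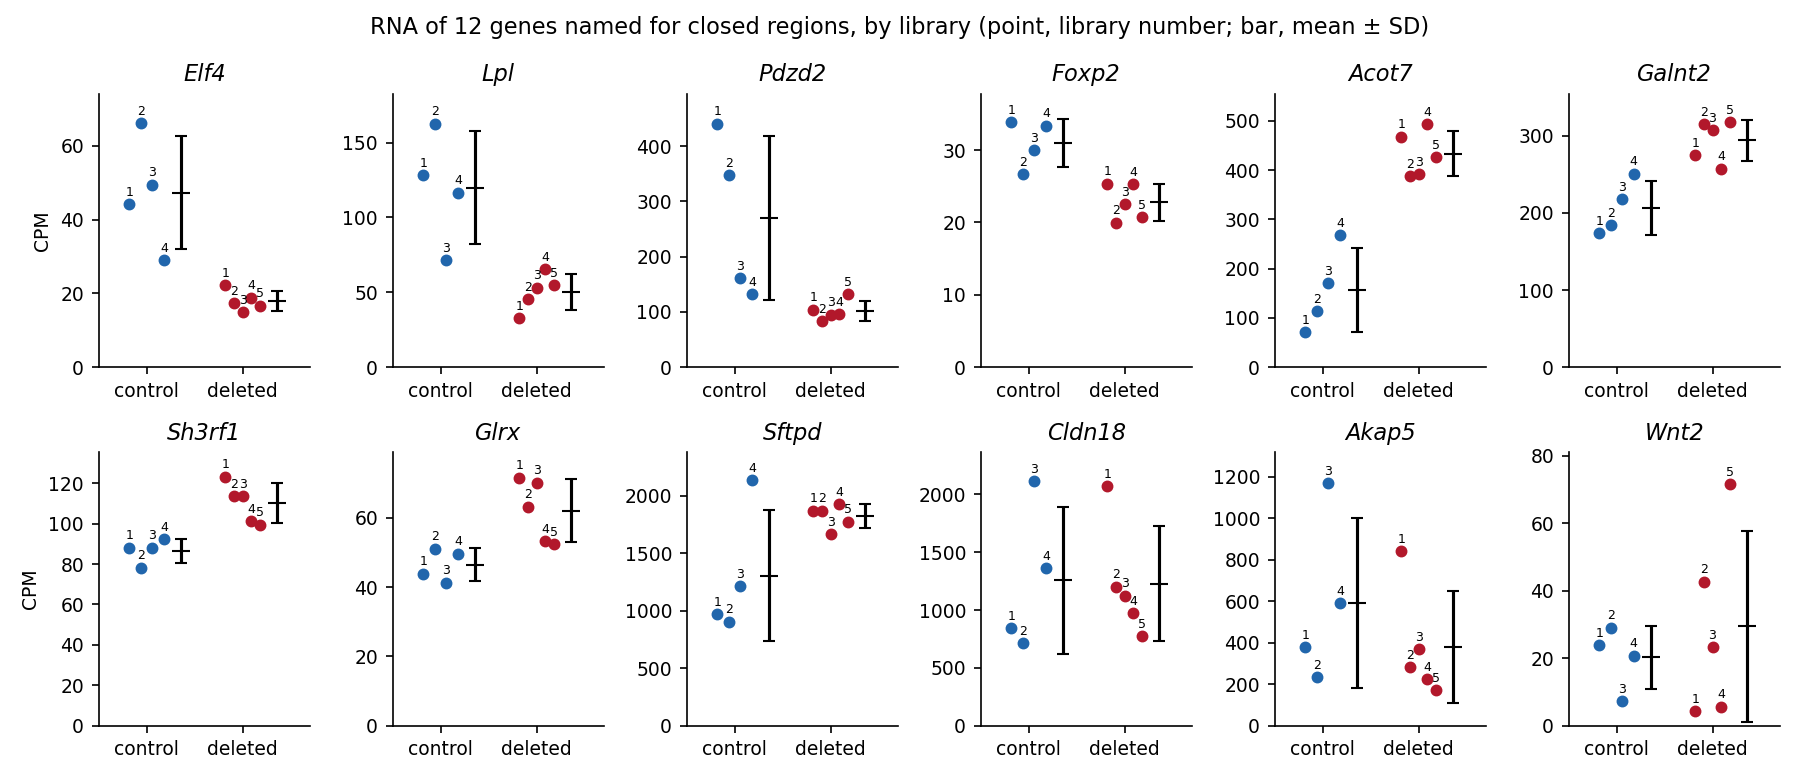
CPM of 12 genes named for closed regions in each control (blue) and Yap deleted (red) RNA library, with the library number above the point and the mean ± SD as a bar. Elf4, Lpl, Pdzd2 and Foxp2 were lower and Acot7, Galnt2, Sh3rf1 and Glrx higher in all deleted libraries than in any control, while the other 4 genes overlap.

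Genes with a closed promoter are given next. Of the 18 named, 13 were tested, and in 0 of them did the deleted libraries lie wholly below or above the controls, where 1.25% and 2.64% of all genes did, so the count is near the background. The 18 promoter regions were named for Hsd3b2, Plet1, Pfdn1, Nhsl1, Ramp1, Trpm8, Pmf1, Zfp738, Wnt2, Slc26a4, Mir141, Fbxl17, Fdx1, Arhgap31, 1700027J07Rik, 2610528J11Rik, Rnu7 and Mir142b. Plet1 had 18.5, 43.3, 41.8 and 73.9 CPM in controls and 32.5, 36.4, 37.2, 89.4 and 46.0 CPM in deleted libraries, with overlap. Wnt2, with a closed promoter and 2 more regions, had 23.9, 29.0, 7.25 and 20.7 CPM in controls and 4.20, 42.7, 23.3, 5.60 and 71.6 CPM in deleted libraries. Both groups spread widely, and Wnt2 is also one of the markers of fibroblasts and muscle, whose sums spread as given above. Slc26a4, the anion exchanger pendrin, had 2.61 to 10.2 CPM in controls and 0.603 to 51.1 CPM in deleted libraries. Ramp1, a receptor partner for neuropeptides, was the one promoter gene with an unadjusted p under 0.05, and it was higher, with 31.5, 39.8, 62.0 and 71.6 CPM in controls and 100.2, 69.1, 82.4, 86.3 and 74.8 CPM in deleted libraries (log2 fold change 0.69 ± 0.24 SE, edgeR adjusted p = 0.269). Trpm8 and 1700027J07Rik had too few counts to be tested.

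A pair of genes had high values in the same controls as the endothelial markers. Ushbp1 had 82.2 and 80.6 CPM in controls 1 and 2, 1.22 and 3.14 CPM in controls 3 and 4, and 0.659 to 2.04 CPM in deleted libraries. Eltd1, an adhesion receptor of endothelium, had 41.2 and 21.5 CPM, then 0.226 and 0.984 CPM, and 0 to 1.32 CPM. Their log2 fold changes of −4.91 and −4.79 became −0.68 and −0.10 without controls 1 and 2, the libraries in which endothelial markers were high.

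Other lists of the study were then set beside the closed regions. With an overlap of at least 1 bp, 0 of the 676 overlapped a region opened in the same line and 2 (0.296%, or 0.144% of the other list) a region closed in the Yap active line, near 1700073E17Rik and Gdf1. Regions opened in the Yap active line overlapped 54 (7.99% of the closed regions, 0.897% of the opened). The 54 comprised 29 intergenic, 22 intronic and 1 promoter region, beside 1 in an exon and 1 in a 3′ UTR, and had a median score of 38.2, against 19.7 for all 676. They included the top-scoring regions of Wnt2 (117.1), Cited2, a transcriptional coregulator (80.55), and one of Rspo2 (75.45), and those of Sftpd, Smad1, Fgf9, Tnfaip3, Jun, Cdh1 (E-cadherin) and Mir141. The regions opened in the Yap deleted line overlapped those opened in the Yap active line at a near share, 40 of 532 (7.52%), and 0 of them overlapped one closed there. The 2 lines have separate controls. Of the 604 genes named, 347 (57.5%, or 7.26% of the 4782 genes of that list) were also named by regions opened in the Yap active line, 62 by regions closed there and 22 (3.64%) by regions opened in the Yap deleted line. The closed region in Sftpd and the one opened there with Yap active thus coincide in part, while Sftpd RNA in the Yap active line had a log2 fold change of 0.56 (edgeR adjusted p = 0.366).

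Broad peaks called in the Yap active line were compared as well. Of the 676 closed regions, 187 (27.7%) overlapped the first peak list of Yap active cells and 91 (13.5%) the second, while 55 (8.14%) and 82 (12.1%) overlapped those of the control cells. For regions opened in the Yap deleted line the shares were 33.8%, 4.89%, 9.96% and 47.6%. Peak lists differed in number (61739, 53714, 345109 and 28418 peaks), and 0.603%, 0.0652%, 0 and 0.0246% of their peaks had a q under 0.05. Peaks were short, with median lengths of 142, 100, 152 and 125 bp. Sources used here do not say which libraries stand behind each peak list, so these shares are not replicates.

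In Yap active RNA, no closed-region gene was called and the share that was lower was below that of all genes. None of the 312 tested was called in edgeR's quasi-likelihood test, against 0% of all 15685 genes. At an unadjusted p under 0.05, 7 (2.24%) were lower, against 5.98%, and 17 (5.45%) higher, against 6.65%, and 156 had a log2 fold change below 0, against 50.6% of all genes (median 0.00). DESeq2 called 1 of them, and limma-voom with sample quality weights called 90 higher and 72 lower, where it called 4479 and 4392 among all genes. Foxp2 and Elf4 had log2 fold changes of −0.04 and −0.12 there, against −0.44 and −1.39 in the Yap deleted line. Acot7 had 1.02 there, against 1.48. The difference between lines was not tested. Esr1 lay at 160 CPM in control 2 of the Yap active line, against 0.964 to 3.20 CPM in its other controls. It lay at 1.97 CPM in active library 1, against 211 to 335 CPM in the other active libraries. Whether the labels of these libraries are right was not tested.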

How the data were processed

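Members and gene lists were chosen with earlier results of these data known. The authors deposited tables of read counts per gene, region lists with a score per region and broad-peak lists with a fold enrichment ratio and −log10 p and q per peak. Per the submitters' processing notes, the tools were Trim Galore, Bowtie2, Cufflinks, DESeq and HOMER, with build mm10. Versions and steps are not given in the sources used here. Per the file headers, HOMER annotatePeaks.pl gave each region its class, its named gene and the distance to that gene's start. Count columns without a mapped sample numbered 0.

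In edgeR 4.0.16 (R 4.3.3), counts passing filterByExpr were scaled by TMM and tested with glmQLFit (robust) and glmQLFTest, the quasi-likelihood test, two-sided, with Benjamini-Hochberg adjustment over all genes tested and calls at an adjusted p under 0.05. CPM uses TMM-scaled library sizes. Region genes were matched by symbol (566) or RefSeq synonym (15), and 23 of the 604, among them 12 microRNAs, were unmatched. Genes with a start within 50 kb entered the main counts. Overlaps were found with bedtools 2.31.1. Motif letters were searched in RefSeq promoter windows, in place of the planned 300 central bases of each region, since no genome was used here. The fit was tested on simulated data.

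Genes were named by rule: those of the 10 highest-scoring regions, of promoter regions, with 3 or more regions, in 9 fixed lists (AT1, AT2 and endothelial markers, Hippo components, Yap and TEAD targets, lung transcription factors, AP-1, Notch and Wnt), and the 8 smallest p per direction within 50 kb. Others were picked from the fixed lists, or after their values were seen where the text says so. Alternatives were DESeq2 1.42.0, limma-voom 3.58.1 with sample quality weights, RLE scaling, all genes with at least 1 count, the replicate number as a block, leaving out each library, the higher-scoring 50% of regions, and other limits on distance, overlap and peak fold. Some items are not reported here.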

Additional observations from a re-analysis of the deposited data

Results flagged for a closer look

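For each named gene that was tested, the libraries of the 4 controls and of the 5 Yap deleted libraries were searched for one that stood far from the rest, by its gap to the nearest other library relative to the group's range (Dixon's ratio at the 95% level). Of 102 such groups, 3 held such a library, and chance gives one in about 1 in 20. Tnip3 had 1.52 CPM in control 4, against 0.818 to 0.859 CPM in the other controls. Plet1, one of the genes with a closed promoter, had 89.4 CPM in deleted library 4, against 32.5 to 46.0 CPM in the other deleted libraries. Ak4, an adenylate kinase, had 13.99 CPM in deleted library 3, against 23.5 to 25.2 CPM in the others, and the other 4 deleted libraries were above all controls (11.1 to 18.2 CPM).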

How the results depend on the processing

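In the Yap deleted RNA, 0 closed-region genes were called with RLE scaling, with all genes of at least 1 count, with limma-voom, with the replicate block, without controls 1 and 2 and at each distance and score limit. DESeq2 called 10, and leaving out each library called 0 to 1, the 1 without control 4. The share lower at an unadjusted p under 0.05 (7.01%) became 4.14% with limma-voom (all genes 4.86%) and 4.11% within 10 kb (all genes 9.18%). Without each library it ran from 5.41% to 11.7%, the extremes without control 1 and control 3 (all genes 5.49% and 14.8%). The share higher (5.73%) became 2.53% without controls 1 and 2 (all genes 2.48%). Without each library it ran from 3.18% to 10.8%, the extremes without control 1 and control 4 (all genes 3.08% and 8.28%). The median (−0.00) became −0.082 without controls 1 and 2 and −0.047 to 0.021 without each library.

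In the Yap active RNA, DESeq2 called 1 and limma-voom 162, and the shares lower and higher (2.24% and 5.45%) became 3.53% and 9.29%, and 25.6% and 30.4% (all genes 7.87% and 8.88%, and 31.3% and 30.9%). They became 11.3% and 10.9% without active library 1 and control 2 (all genes 15.7% and 13.6%). The share lower was 3.77% at any distance (all genes 5.98%). The share higher was 3.17% among the higher-scoring regions (all genes 6.65%) and 8.97% with the replicate block (all genes 5.62%). Without each library, 0 were called, the shares ranged from 0.958% to 15.1% and from 1.60% to 22.7%, and the median from −0.035 to 0.046. The highest shares came without active library 1 (15.1% lower, all genes 19.3%) and without control 4 (22.7% higher, all genes 20.3%).

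With the replicate block, the shares in the Yap deleted RNA were 4.78% lower and 6.69% higher (all genes 4.84% and 4.95%). Correlations of same-numbered libraries were −0.26, 0.47, 0.15 and 0.36 in that line and 0.57, 0.04, 0.06 and 0.54 in the Yap active line. Of 8 libraries per line with a partner, 5 and 3 correlated best with their own number. No chance level was worked out for these counts, and whether the numbers pair the libraries was not tested. Crossed pairings were not tried.

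An overlap of at least 50% of the closed region left 1 and 2 regions under the 2 Yap active peak lists and 1 and 1 under the control lists, whose peaks have median lengths of 100 to 152 bp. Peaks with a fold of at least the list median left 98, 35 and 37, and 44 under the first control list. Among the higher-scoring 50% of regions, 49.1% were intergenic and 0.888% at promoters. In the central 200 bases the shares of windows with TEAD and AP-1 letters were 6.67% and 20.0%. The cause of these changes was not tested. No named gene that passed an unadjusted p of 0.05 changed direction under an alternative. Of the 581 genes found in the RNA table, 106 had too few counts to be tested, and the ATAC contrast has a single control library.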

Other observations

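Gene clusters outside the fixed lists also drew several closed regions, and these were picked after the list was read. Within 89.1 kb on chromosome 13, 3 regions were named for the zinc finger genes Zfp738, Zfp85 and Zfp493 (scores of 12.8 to 94.4). Within 105 kb on chromosome 7, 3 were named for the sulfotransferase genes Sult2a4 and Sult2a3 (22.1 to 151.3). Within 134 kb on chromosome 13, 3 were named for S100z and the protease-activated receptor genes F2rl1 and F2r (11.05 to 32.3). Within 72.3 kb on chromosome 16, 3 were named for Trat1, Retnlb and Retnla (17.65 to 28.1). The zinc finger and sulfotransferase genes belong to families of similar genes, and how the authors placed reads that match several of them is not stated, so values there are uncertain.

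Of 37 genes of synaptic and neuronal adhesion, 5 were named by closed regions, where 2.47% of all genes were named. Regions opened in the same line named 3 of them, and those closed and opened in the Yap active line 5 and 16. Of the 5, 4 had enough counts to be tested, with log2 fold changes of −0.38 to 0.21. At an unadjusted p under 0.05 there were 0, too few genes to stand apart from the shares over all genes (9.18% lower, 6.13% higher). Chromosome Y held 1 closed region and chromosome X 18, against 0 and 8 of the regions opened in the same line. The sex of the animals behind the ATAC libraries is not stated, and its part in these counts was not tested.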
